A study of Homo sapiens with 84 samples.

Results

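The comparison sets NCI-H1373 cells exposed for 24 h to 3 nM RBN012337 against NCI-H1373 cells exposed for 24 h to the vehicle DMSO. NCI-H1373 is an established human non-small cell lung cancer line, and RBN012337 is a PARP7 inhibitor, used here at the lowest of its 3 doses, which the study set around inhibitory concentrations of the compound. The libraries were chosen by their titles, which give line, compound, dose, time and replicate number, so that 3 treated and 3 DMSO libraries enter the comparison, 6 of the 84 in the series. The other libraries used beside them are NCI-H1373 with RBN012337 at 10 and 100 nM for 24 h, NCI-H1373 with RBN012337 at 3 nM or DMSO for 6 h, and NCI-H647, another lung cancer line, with RBN012337 at 3 nM or DMSO for 24 h. All cells were left to attach to the dish overnight before the compound was added, and the labels name no genetic change in any group. The labels speak of triplicate experiments without naming separate cultures or days, so each p-value here rests on library-to-library spread alone, part of which may be technical.

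PARP7, encoded by TIPARP, transfers single ADP-ribose units onto proteins. Its gene is a target of the aryl hydrocarbon receptor (AHR), a ligand-activated transcription factor that PARP7 represses in turn, and PARP7 is known as a brake on the type I interferon response that starts at cytosolic nucleic acid sensors and the kinase TBK1. In that response secreted interferon acts through its receptor, STAT proteins and IRF9 on interferon-stimulated response elements in the promoters of antiviral genes.

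The 3 nM libraries held 5456093, 1333934 and 1778289 counts, and the DMSO libraries held 3610536, 1622874 and 630654 counts. All 8 epithelial markers were detected in both groups, at a summed 6041 to 6997 CPM at 3 nM and 2577 to 2976 CPM in DMSO, where CPM are counts scaled by the library total alone, as they are for all markers in this paragraph. Elsewhere CPM use library sizes adjusted by TMM, a scaling factor from edgeR. Leukocyte markers summed to at most 2.75 CPM at 3 nM and 1.38 CPM in DMSO, with PTPRC, CD3E, NKG7 and TYROBP among those at 0. Fibroblast markers summed to 1.50 to 4.03 CPM at 3 nM and 1.59 to 15.4 CPM in DMSO, with COL1A2 and PDGFRB at 0. Endothelial markers summed to at most 1.50 CPM at 3 nM and 1.66 CPM in DMSO, with VWF, CDH5 and CLDN5 at 0, and red cell markers to at most 1.12 CPM at 3 nM and 9.51 CPM in DMSO, with ALAS2 at 0.

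The DMSO libraries did not all resemble each other. Over 5588 genes with a mean of at least 20 CPM, Spearman correlations among the 3 nM libraries ran from 0.898 to 0.943. DMSO replicates 1 and 2 correlated at 0.889, whereas DMSO replicate 3, the shallowest library, correlated at 0.806 with DMSO replicate 1 and 0.759 with replicate 2. The same DMSO replicate 3 correlated at 0.789, 0.843 and 0.861 with the 3 nM libraries. At 100 nM, replicate 1 correlated at 0.959 with DMSO replicate 1 and replicate 2 at 0.928 with DMSO replicate 2, while 100 nM replicate 3 correlated at 0.938 and 0.936 with 3 nM replicates 2 and 3. By this measure DMSO replicate 3 stood nearer to 3 nM replicates 2 and 3 than to the other DMSO libraries. The labels were used as given. Whether they hold for each of these libraries was not tested, and each value of 3 nM against DMSO or against 100 nM rests on them. For this reason the counts of called list members are, for most lists, given with the counts that remain without single DMSO libraries.

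Of 12832 genes tested, 1091 were called between 3 nM and DMSO at 24 h, 8.5% of all genes (edgeR quasi-likelihood F test, Benjamini-Hochberg adjusted p under 0.05). Genes higher at 3 nM numbered 637 (4.96%), and genes lower at 3 nM numbered 454 (3.54%). Each count of list members below is to be read beside these shares. Protein-coding genes made up 1032 of the called genes. In 919 called genes the 3 treated libraries did not overlap the 3 DMSO libraries, 590 of them higher and 329 lower at 3 nM, while over all genes tested 21.7% showed no overlap. TMM scaling sets the centre of the fold changes, whose median over all genes was 0.00, and the changes below are relative to that centre. These are bulk libraries, in which fewer cells of a type and less RNA per cell cannot be told apart.

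The number called depended on single libraries. Leaving out 3 nM replicates 1, 2 and 3 in turn left 436, 576 and 585 genes, and leaving out DMSO replicates 1, 2 and 3 left 127, 628 and 1653 genes. All called genes that could be tested kept their sign in each of these 6 fits, 1087 of them without DMSO replicate 1 and 1091 in each of the other fits. Since they were chosen as called from the same libraries, a kept sign was nearly fixed in advance and lends no support. The median size of the log2 fold changes of these genes was 1.18 without DMSO replicate 1 and 1.45 without DMSO replicate 3, against 1.32 with all libraries. The genes called in all 6 fits numbered 98, of which 69 were higher and 29 lower at 3 nM. Another fit kept replicates 2 and 3 alone of every NCI-H1373 group at 24 h, so that the contrast held the 4 shallower libraries of 3 nM and DMSO. In that fit no gene was called, and the deep libraries, replicate 1 of each group, are too few to test alone.

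**Figure D1:**
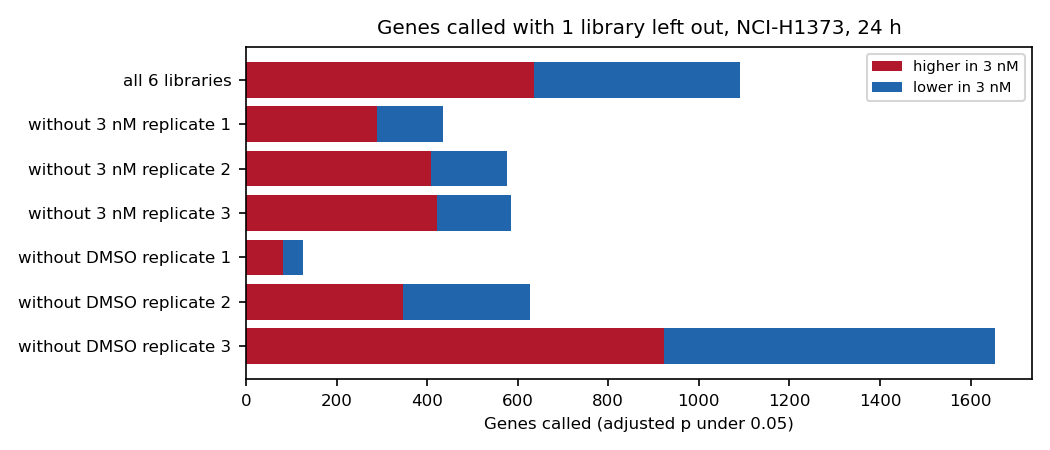
Number of genes called (horizontal axis, adjusted p under 0.05) in NCI-H1373 at 24 h, higher (red) or lower (blue) at 3 nM than in DMSO, with all 6 libraries and with each library left out. The count was smallest, 127, without DMSO replicate 1 and largest, 1653, without DMSO replicate 3.

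Interferon-stimulated antiviral effectors had the most members called higher of any list. Of 62 members, all of them tested, 22 rose and 0 fell at 3 nM, a share of 35.5% beside 4.96% of all genes, and the list median was 1.02 on the log2 scale beside 0.00 over all genes. Their summed level was 6848, 8700 and 5893 CPM at 3 nM, against 2699, 2125 and 2538 CPM in DMSO, so each treated library lay above each DMSO library. A positive log2 fold change was seen in 58 of 62 members, where the median over all genes was 0.00. In 44 of the 62 the treated libraries all lay above the DMSO libraries, beside 21.7% of all genes without overlap in either direction. Without DMSO replicates 1, 2 and 3 in turn, 4, 9 and 22 members were called. With only replicates 2 and 3 of the groups at 24 h in the fit 0 were called, and with only the 21 libraries at 24 h 10.

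OASL (ENSG00000135114.12, chromosome 12, 121019111 to 121039242 on GRCh38) encodes an oligoadenylate synthetase-like protein that enhances RNA sensing by RIG-I. It stood at 259, 296 and 189.7 CPM at 3 nM, against 10.8, 2.03 and 20.8 CPM in DMSO. The groups lay far apart, and the lowest DMSO value was that of replicate 2. The log2 fold change was 4.71 ± 0.77 (edgeR adjusted p = 0.00107), and OASL stayed called in all 6 fits that leave out 1 library. IFIT1 (ENSG00000185745.9, chromosome 10, 89392546 to 89406486), an RNA-binding protein that blocks translation of viral RNA, stood at 357, 578 and 311 CPM at 3 nM, against 11.6, 12.7 and 31.2 CPM in DMSO. It rose by 4.68 ± 0.97 on the log2 scale (adjusted p = 0.00452), and without DMSO replicate 1 the value was 4.36 with an adjusted p of 0.0624. Its relative IFIT2 had 169, 317 and 201 CPM at 3 nM, against 30.5, 11.6 and 24.3 CPM in DMSO, again without overlap. IFIT2 rose by 3.36 ± 0.63 (adjusted p = 0.00248) and was called in all 6 fits.

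IFI44L, an interferon-induced gene, had 59.9, 122 and 40.3 CPM at 3 nM, against 3.10, 2.03 and 8.68 CPM in DMSO. MX1, a dynamin-like GTPase that traps viral nucleocapsids, had 74.6, 125 and 32.5 CPM at 3 nM, against 12.1, 7.09 and 3.47 CPM in DMSO. IFITM1, a membrane protein that restricts viral entry, had 240.2, 428 and 186 CPM at 3 nM, against 26.6, 28.9 and 52.1 CPM in DMSO. In all 3 genes the treated libraries lay above the DMSO libraries, with 3 nM replicate 2 the highest and replicate 3 the lowest. The log2 fold changes were 4.39 ± 1.07 for IFI44L (adjusted p = 0.0119), 3.11 ± 0.82 for MX1 (adjusted p = 0.0183) and 3.06 ± 0.86 for IFITM1 (adjusted p = 0.027). None of the 3 stayed called without DMSO replicate 1, where their adjusted p was 0.116, 0.0879 and 0.156.

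TRIM14, an adaptor of RNA sensing at mitochondria, varied little within each group, with 59.4, 46.5 and 43.6 CPM at 3 nM, against 15.8, 13.7 and 15.6 CPM in DMSO. It rose by 1.74 ± 0.35 (adjusted p = 0.00297). ISG15, a ubiquitin-like protein attached to targets during the interferon response, had 1368, 1398 and 1076 CPM at 3 nM, against 265, 153 and 239.5 CPM in DMSO. It rose by 2.55 ± 0.54 (adjusted p = 0.0049). OASL, IFIT2, ISG15 and TRIM14 were the 4 antiviral effectors called whichever of the 6 libraries was left out. ISG15, IFIT3, the OAS genes, HERC5, EPSTI1, CMPK2, MUC5B, SOX2 and DDIT4 fall outside the rule by which genes are named and were chosen after their values were seen, as were the genes given below as not called, other than TIPARP and CYP1B1.

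The oligoadenylate synthetases OAS1, OAS2 and OAS3, which activate the ribonuclease RNase L, rose together. OAS1 ran from 30.9 to 66 CPM at 3 nM against 4.56 to 11.4 CPM in DMSO, OAS2 from 38 to 90.8 CPM at 3 nM against 3.47 to 14.7 CPM in DMSO and OAS3 from 81.1 to 133 CPM at 3 nM against 19.1 to 26.3 CPM in DMSO. Their log2 fold changes were 2.47 ± 0.61, 2.61 ± 0.66 and 2.16 ± 0.51 (adjusted p = 0.0117, 0.0141 and 0.00945). HERC5, the ligase that attaches ISG15, had 13.4, 21 and 14.9 CPM at 3 nM, against 1.03, 0.506 and 0 CPM in DMSO, which is close to the detection limit in DMSO, and rose by 4.35 ± 1.03 (adjusted p = 0.00959). EPSTI1 held 46 counts at 3 nM and 3 in DMSO over the 3 libraries, a ratio of 10.5 after scaling for depth, with an exact 95% interval for counting error of 3.37 to 52.7. CMPK2, a mitochondrial nucleotide kinase, held 37 counts at 3 nM and 2 in DMSO, a ratio of 12.7 with an interval of 3.27 to 108. These intervals leave out the spread between libraries. EPSTI1 and CMPK2 were each called in only 2 of the 6 fits that leave out 1 library, OAS1 and OAS2 in 4, and OAS3 and HERC5 in 5.

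Several members passed neither way. RSAD2, the antiviral enzyme viperin, had 8.35, 10.5 and 10.5 CPM at 3 nM, against 3.87, 5.06 and 1.74 CPM in DMSO (log2 1.26 ± 0.50, adjusted p = 0.11). USP18, the protease that removes ISG15, had 4.54, 7.51 and 4.41 CPM at 3 nM, against 4.39, 4.05 and 3.47 CPM in DMSO (log2 0.35 ± 0.78, adjusted p = 0.862). The USP18 groups lay close together, while those of RSAD2 did not overlap. Reads of IFIT1 and IFIT2 can be shared with LIPA on the opposite strand and those of TRIM14 with NANS, and IFITM1 overlaps IFITM2 on the same strand. How strand was handled in counting is not given in the sources used here, so these values carry that uncertainty.

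**Figure D2:**
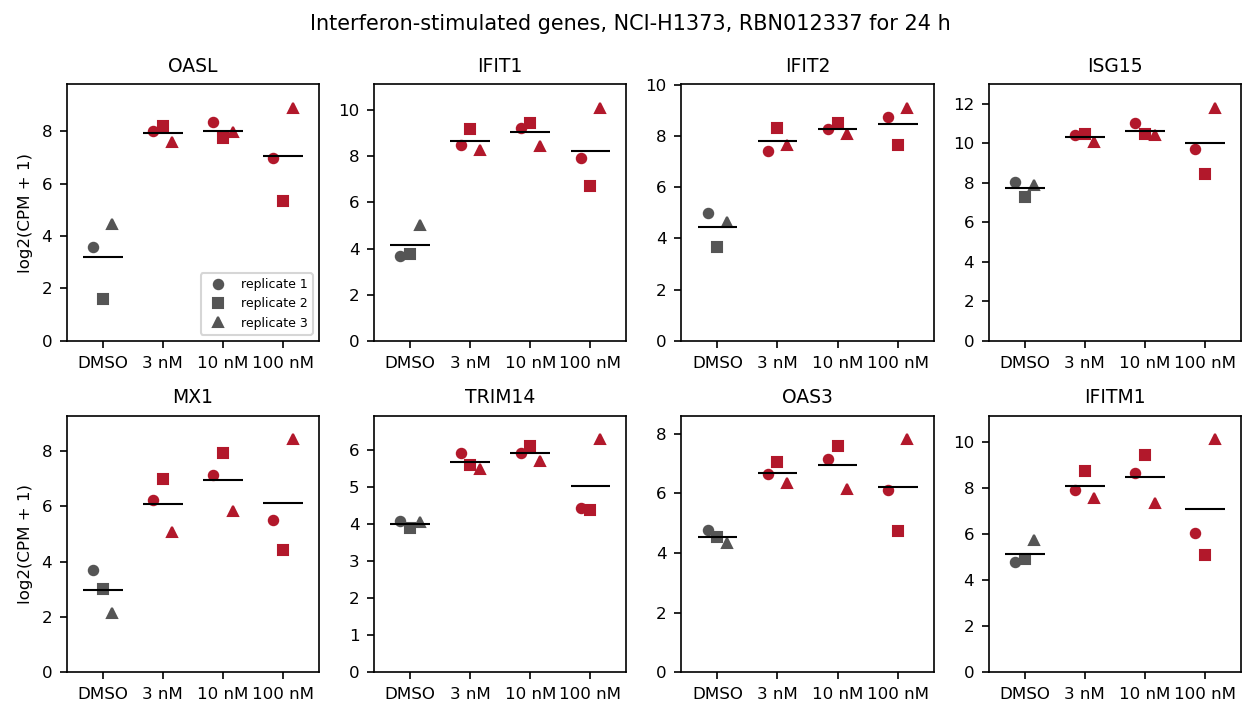
log2(CPM + 1) of 8 interferon-stimulated genes in NCI-H1373 after 24 h with DMSO (grey) or RBN012337 at 3, 10 or 100 nM (red), 1 point per library and a line at the mean of the 3 values. In each panel the 3 nM libraries lie above the DMSO libraries, and at 100 nM replicate 3 stands above replicates 1 and 2.

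The promoters of these genes were searched for the core of the interferon-stimulated response element. The list holds genes known to respond to interferon, so a share above that of all promoters follows from the choice of list. The search covered the 250 bases before the start of each gene in RefSeq (GRCh38.p14) for GAAA, any 2 bases and GAAA, or on the other strand TTTC, any 2 bases and TTTC. Promoter stretches of 4 called genes are shown in which the motif fell within the window, each read on the strand of its gene with matches in capitals and up to 15 bases kept on either side. After the last match of IFIT3 fewer are shown, since bases of an exon of the gene were left out.

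IFIT1, chr10:89392492-89392544, forward strand: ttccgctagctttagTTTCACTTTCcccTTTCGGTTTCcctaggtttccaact
IFIT3, chr10:89327826-89327893, forward strand: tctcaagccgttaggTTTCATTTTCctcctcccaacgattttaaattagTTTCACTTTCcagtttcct
ISG15, chr1:1013369-1013414, forward strand: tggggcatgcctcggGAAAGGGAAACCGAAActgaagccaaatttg
TRIM14, chr9:98119224-98119263, reverse strand: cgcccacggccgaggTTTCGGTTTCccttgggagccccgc

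IFIT1 and IFIT3 each carried 2 separate matches and TRIM14 carried 1. In ISG15 the 2 matches overlap by 4 bases. Of the 22 antiviral effectors called higher, 19 matched a promoter and 12 of these held the motif (63.2%). Among the 40 tested members that were not called, 28 matched a promoter and 15 held the motif (53.6%), so the motif was common in the list whether or not a member was called. The share was 3.71% over all 27305 promoters and 3.36% over the 9236 promoters of genes tested. Over all called genes it was 5.66% of those higher at 3 nM and 4.08% of those lower, and 0 of 12 for the DNA replication genes called higher. The core of the element bound by AHR, TNGCGTG or on the other strand CACGCNA, was found in 1 of 8 matched promoters of the AHR axis (12.5%), in 8.01% of the promoters of genes tested and in 7.07% of those called higher. A match describes letters in a window and not a bound site.

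Upstream of these genes few members passed the test. Of 18 interferon receptors, STATs and IRFs tested, 0 rose and 1 fell, with a median of −0.27, and 0, 1 and 3 fell without DMSO replicates 1, 2 and 3 in turn. IFNAR1, a chain of the type I interferon receptor, stood at 26.3, 27.8 and 27.6 CPM at 3 nM, against 66.1, 43 and 59 CPM in DMSO. The treated libraries lay within a narrow band below the DMSO libraries, and IFNAR1 fell by 1.04 ± 0.25 on the log2 scale (adjusted p = 0.00967), although not without DMSO replicate 1 (log2 −0.91, adjusted p = 0.107). STAT2 gave −0.04 ± 0.33 and IRF9 −0.07 ± 0.68 (adjusted p = 0.978 and 0.979).

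Of 14 nucleic acid sensing genes tested, 1 rose and 1 fell, 7.14% each beside 4.96% higher and 3.54% lower over all genes. Without DMSO replicates 1, 2 and 3 in turn 0, 0 and 2 rose and 0, 0 and 1 fell. IFIH1, which encodes the RNA sensor MDA5, had 51.4, 102 and 52.4 CPM at 3 nM, against 19.9, 26.8 and 13.9 CPM in DMSO. It rose by 1.68 ± 0.51 (adjusted p = 0.0391), a call lost in each fit that left out 1 library. TBK1, the kinase that phosphorylates IRF3, had 3.81, 3.75 and 7.17 CPM at 3 nM, against 11.1, 10.1 and 10.4 CPM in DMSO. It fell by 1.14 ± 0.36 (adjusted p = 0.0448), with its treated and DMSO libraries apart, and over the 6 fits its adjusted p reached 0.227. For IFIH1 it ran from 0.0527 to 0.188.

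Among interferons and T-cell chemokines 4 of 12 members were abundant enough to test and 1 rose. CCL5, a chemokine that attracts T cells, had 11.4, 12 and 7.17 CPM at 3 nM, against 2.07, 2.53 and 0 CPM in DMSO. It rose by 2.35 ± 0.65 (adjusted p = 0.021), and its adjusted p reached 0.154 without DMSO replicate 1. IFNB1 held 1 count at 3 nM and 0 in DMSO over the 3 libraries, and CXCL10 likewise held 1 and 0, both too few to compare. Of 18 MHC class I genes tested, edgeR called 0, with 2 higher and 0 lower at an unadjusted p under 0.05, and DESeq2 called 0. B2M, the light chain shared by class I molecules, gave −0.33 ± 0.24 (adjusted p = 0.454). Among 7 immune checkpoint ligands edgeR and DESeq2 also called 0, with 2 higher and 2 lower at an unadjusted p under 0.05. CD274, the ligand PD-L1, had 15.1, 7.51 and 17.6 CPM at 3 nM, against 31.3, 17.2 and 19.1 CPM in DMSO, with overlapping groups (log2 −0.76 ± 0.32, adjusted p = 0.131).

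The aryl hydrocarbon receptor axis, the other arm known for PARP7, had 3 of 10 tested members called higher at 3 nM and 0 lower. The share higher was 30% beside 4.96% of all genes, and the list median was 1.07. ALDH1A3, a retinaldehyde dehydrogenase, stood at 85.7, 98.3 and 88.8 CPM at 3 nM, against 3.10, 3.04 and 13.9 CPM in DMSO. Its treated libraries lay close together and far above DMSO, where replicate 3 was the highest. ALDH1A3 rose by 4.29 ± 0.74 (adjusted p = 0.00143) and was called in all 6 fits, and its reads can be shared with the antisense gene AC015712.2. EREG, the EGF receptor ligand epiregulin, had 122, 147 and 128 CPM at 3 nM, against 13.7, 13.2 and 64.2 CPM in DMSO, and rose by 2.39 ± 0.71 (adjusted p = 0.0347). ALDH3A1, an aldehyde dehydrogenase induced by AHR ligands, had 8.90, 6.75 and 7.17 CPM at 3 nM, against 0.775, 1.01 and 0 CPM in DMSO, and rose by 3.27 ± 0.87 (adjusted p = 0.0162). Without DMSO replicates 1, 2 and 3 in turn, 1, 2 and 3 members were called, and the highest adjusted p over the 6 fits was 0.222 for EREG and 0.141 for ALDH3A1.

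CYP1B1 (ENSG00000138061.11, chromosome 2, 38066973 to 38109902), a cytochrome P450 that is a direct AHR target, was not called at 24 h. It had 43.9, 61.5 and 52.9 CPM at 3 nM, against 30.2, 22.3 and 6.94 CPM in DMSO. The treated libraries lay above the DMSO libraries, but the DMSO values spread widely, and the log2 fold change was 1.25 ± 0.71 (adjusted p = 0.3). Without the filter on low counts CYP1B1 was called, at a nearly unchanged 1.24 (adjusted p = 0.00127 by edgeR). That fit also gave KRT4, OASL and IFIT1 adjusted p many orders of magnitude below those of the main fit, at nearly unchanged log2 values. Its adjusted p therefore cannot be compared with those of the main fit, and the call adds no support for a CYP1B1 change at 24 h. TIPARP (ENSG00000163659.12, chromosome 3, 156673235 to 156706770), the gene of the inhibited enzyme itself, had 67.4, 68.3 and 61.8 CPM at 3 nM, against 40.6, 24.8 and 43.4 CPM in DMSO. Its groups did not overlap either, and its log2 fold change of 0.88 ± 0.34 missed the threshold (adjusted p = 0.0941). With only the 21 libraries at 24 h in the fit it was 0.85 and passed (adjusted p = 0.0419). AHR gave 0.57 ± 0.21 and the repressor gene AHRR 1.50 ± 0.63 (adjusted p = 0.0865 and 0.131). CYP1A1 was at most 1.09 CPM at 3 nM and 2.07 CPM in DMSO. CYP1B1 and TIPARP each overlap an antisense gene, whose reads cannot be told from theirs.

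Of 15 PARP family genes and DTX3L tested, 2 rose (13.3% beside 4.96% of all genes) and 0 fell. Without DMSO replicates 1, 2 and 3 in turn 0, 2 and 1 rose. PARP9, which acts with the ubiquitin ligase DTX3L in interferon signalling, had 45.6, 59.3 and 46.9 CPM at 3 nM, against 19.6, 17.7 and 17.4 CPM in DMSO. It rose by 1.44 ± 0.45 (adjusted p = 0.04), a call lost in each fit with 1 library left out (adjusted p = 0.0598 to 0.164). PARP6 ran from 11 to 15.8 CPM at 3 nM against 3.47 to 9.11 CPM in DMSO and rose by 1.07 ± 0.33 (adjusted p = 0.0396, at most 0.243 over the 6 fits). DTX3L, which shares its locus with PARP9 on the opposite strand, gave 0.91 ± 0.32 (adjusted p = 0.0698).

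Among the lists, keratins and squamous genes had the highest share of tested members called. Of 26 members 13 were abundant enough to test, and the shares below cover those alone. Of these, 8 rose and 1 fell at 3 nM, 61.5% and 7.69% beside 4.96% and 3.54% of all genes, and the median was 1.62. KRT4 (ENSG00000170477.12, chromosome 12, 52806549 to 52814551), a keratin of mucosal epithelium, had the largest rise that met the naming rule. It stood at 79.5, 75.8 and 57.4 CPM at 3 nM, against 1.81, 0.506 and 6.94 CPM in DMSO, and rose by 5.15 ± 1.17 (adjusted p = 0.00756). Without DMSO replicate 1 its log2 value was 4.99 with an adjusted p of 0.0904. KRT18, the main keratin of simple epithelium, had 2694, 2361 and 2180.4 CPM at 3 nM, against 627, 754 and 993 CPM in DMSO and rose by 1.61 ± 0.29 (adjusted p = 0.00107), called in all 6 fits. KRT7, of ductal and glandular epithelium, had 1311, 1047 and 1346 CPM at 3 nM, against 203, 307 and 609 CPM in DMSO, and rose by 1.74 ± 0.39 (adjusted p = 0.00582). KRT19 had 1396, 1579.8 and 1253 CPM at 3 nM, against 502, 441 and 877 CPM in DMSO, and rose by 1.22 ± 0.26 (adjusted p = 0.00422).

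For KRT7 and KRT19, as for KRT4 and ALDH1A3, the DMSO library nearest to the treated ones was replicate 3. KRT15, a keratin of basal cells, moved the other way, with 15.1, 11.3 and 9.93 CPM at 3 nM, against 47.3, 54.7 and 15.6 CPM in DMSO. It fell by 1.74 ± 0.36 (adjusted p = 0.00329). LY6D, a surface protein of squamous and basal epithelium, had 98.2, 63.8 and 56.8 CPM at 3 nM, against 4.13, 2.53 and 29.5 CPM in DMSO and rose by 3.25 ± 0.78 (adjusted p = 0.0105). Without DMSO replicates 1, 2 and 3 in turn, 1, 5 and 8 members of the keratin list were called higher. Over the 6 fits the highest adjusted p was 0.0739 for KRT7, 0.058 for KRT19 and 0.131 for LY6D. Keratin genes resemble each other in sequence, KRT18 overlaps KRT8 and KRT7 overlaps KRT86, so the split of reads between them is uncertain.

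Of 31 lung lineage and mucin genes 18 were abundant enough to test. Of these, 6 rose and 0 fell (33.3% higher beside 4.96% of all genes, median 1.10). MUC16, a membrane mucin, had 22.3, 27 and 21 CPM at 3 nM, against 4.65, 5.57 and 6.94 CPM in DMSO, and rose by 2.12 ± 0.36 (adjusted p = 0.00107). MUC1, another membrane mucin, had 28, 31.5 and 18.7 CPM at 3 nM, against 2.07, 3.54 and 6.94 CPM in DMSO, and rose by 2.99 ± 0.62 (adjusted p = 0.00356). The groups were apart in both genes. The secreted mucin MUC5AC had 23.4, 19.5 and 20.4 CPM at 3 nM, against 2.07, 4.05 and 0 CPM in DMSO, and rose by 3.08 ± 0.73 (adjusted p = 0.00921). SPDEF, a transcription factor of goblet cells, had 39.8, 18.8 and 23.7 CPM at 3 nM, against 2.58, 1.52 and 12.2 CPM in DMSO, and rose by 3.01 ± 0.72 (adjusted p = 0.0103). MUC5B, a secreted mucin, held 49 counts at 3 nM and 0 in DMSO, at least 11.2-fold higher against a floor of 3 counts over the group. SOX2, a transcription factor of airway and squamous epithelium, held 24 counts at 3 nM and 0 in DMSO, at least 5.48-fold higher. With 0 counts in DMSO, MUC5B and SOX2 passed the filter on low counts through other groups alone, which favours genes high there. Their bounds rest on pooled counts and leave out the spread between libraries. Of the 6 fits that leave out 1 library, MUC5B was called in 3 and SOX2 in 2.

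The factors that mark lung epithelium itself did not pass. NKX2-1 had 33.4, 30.02 and 17.1 CPM at 3 nM, against 15.8, 10.1 and 10.4 CPM in DMSO (log2 1.10 ± 0.39, adjusted p = 0.0712), and FOXA2 had 14.2, 13.5 and 7.72 CPM at 3 nM, against 8.01, 3.04 and 3.47 CPM in DMSO (log2 1.12 ± 0.38, adjusted p = 0.0571). Without DMSO replicates 1, 2 and 3 in turn, 2, 3 and 6 members of the lung lineage and mucin list were called, and the highest adjusted p over the 6 fits was 0.0772 for MUC1, 0.114 for MUC5AC and 0.132 for SPDEF. Mucin genes hold repeats and near copies, which makes their counts less certain.

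Of 21 mesenchymal genes tested, 3 rose and 1 fell, and without DMSO replicates 1, 2 and 3 in turn 1, 1 and 5 rose and 0, 0 and 2 fell. VIM, the intermediate filament of mesenchymal cells, had 262, 229 and 251 CPM at 3 nM, against 31, 20.3 and 88.5 CPM in DMSO, and rose by 2.54 ± 0.64 (adjusted p = 0.0141), although not without DMSO replicate 1 (log2 2.28, adjusted p = 0.118). CD44, a hyaluronan receptor, had 343, 311 and 321 CPM at 3 nM, against 145, 144 and 168 CPM in DMSO, and rose by 1.10 ± 0.23 (adjusted p = 0.00386) in all 6 fits. LOXL2, a collagen cross-linking enzyme, rose by 1.17 ± 0.33 (adjusted p = 0.0257), and PLAUR, the urokinase receptor, fell by 0.99 ± 0.28 (adjusted p = 0.0224). Of 23 epithelial adhesion genes 1 rose and 1 fell, and without the same libraries 0, 2 and 1 rose and 0, 0 and 3 fell. CDH3, the adhesion protein P-cadherin, had 31.4, 32.3 and 28.7 CPM at 3 nM, against 10.1, 8.61 and 13.9 CPM in DMSO, and rose by 1.59 ± 0.36 (adjusted p = 0.00611). OCLN, the tight junction protein occludin, had 10.3, 11.3 and 8.82 CPM at 3 nM, against 42.4, 42.5 and 8.68 CPM in DMSO, so that DMSO replicate 3 lay with the treated libraries, and it fell by 1.73 ± 0.48 (adjusted p = 0.0201). With single libraries left out, the adjusted p reached 0.147 for LOXL2, 0.187 for PLAUR, 0.0718 for CDH3 and 0.135 for OCLN.

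**Figure D3:**
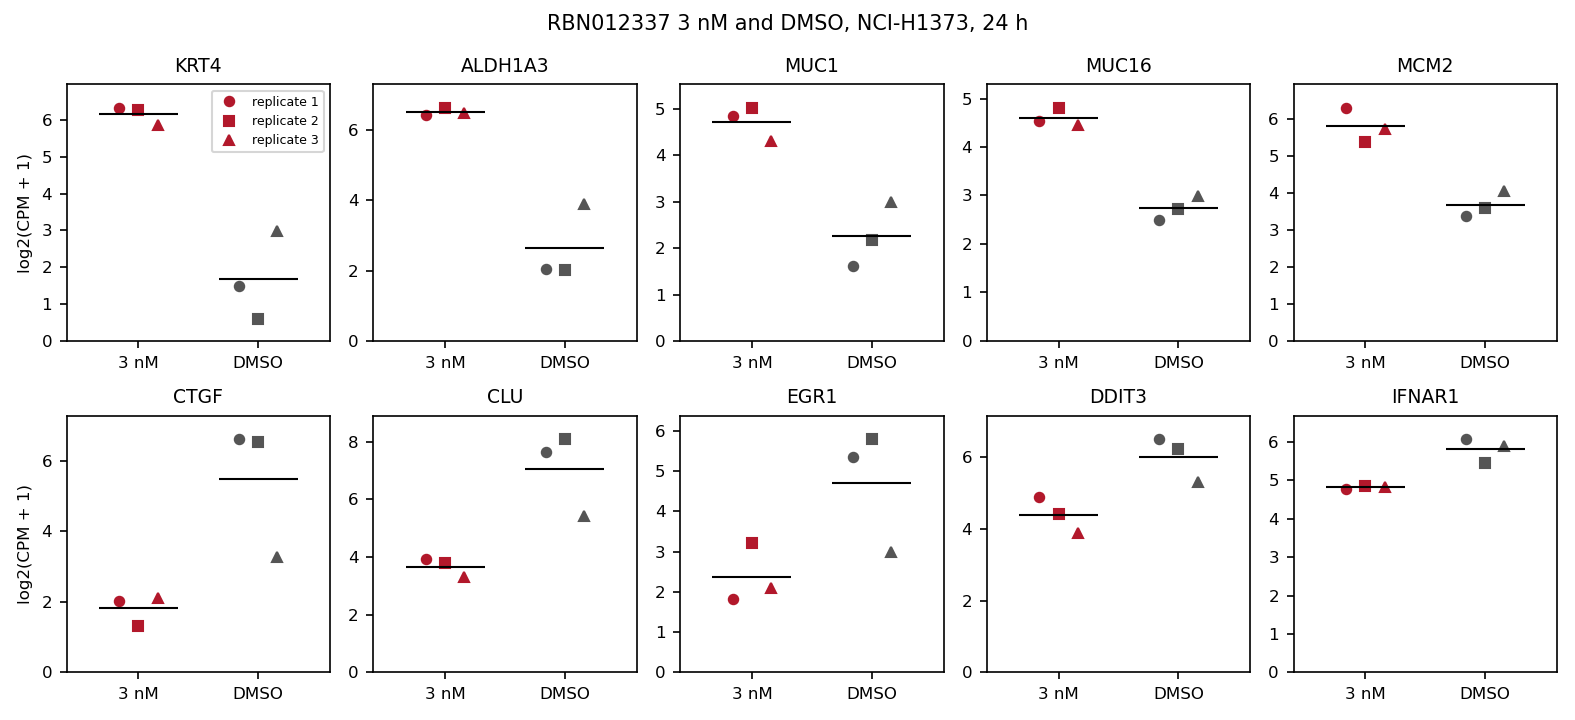
log2(CPM + 1) of 10 genes in NCI-H1373 after 24 h with RBN012337 at 3 nM (red, left) or DMSO (grey, right), 1 point per library and a line at the mean. KRT4, ALDH1A3, MUC1, MUC16 and MCM2 were higher at 3 nM and CTGF, CLU, EGR1, DDIT3 and IFNAR1 lower, and in EGR1 DMSO replicate 3 lies within the range of the treated libraries.

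Among proliferation genes the calls fell on DNA replication. Of 40 replication genes, all tested, 14 rose and 0 fell (35%, median 0.87), and of 30 mitosis genes 0 rose and 1 fell (median −0.10), a difference between the lists that was not tested. The replication genes summed to 2544, 2096 and 2435 CPM at 3 nM, against 1026, 967 and 2241 CPM in DMSO, so that DMSO replicate 3 lay within the range of the treated libraries. At 6 h they summed to 2695, 2566 and 2535 CPM at 3 nM, against 3075, 2827 and 2529 CPM in DMSO. With 100 nM for 24 h they summed to 1234, 1009 and 2252 CPM. DMSO replicates 1 and 2 at 24 h thus lay far below both groups at 6 h, and the cause was not tested. MCM2, a subunit of the replicative helicase, had 77.9, 40.5 and 51.8 CPM at 3 nM, against 9.30, 11.1 and 15.6 CPM in DMSO, and rose by 2.37 ± 0.41 (adjusted p = 0.00107). MCM6, of the same complex, had 86.6, 64.5 and 75.5 CPM at 3 nM, against 23.2, 19.2 and 36.5 CPM in DMSO, and rose by 1.61 ± 0.29 (adjusted p = 0.00129). Both were called in all 6 fits. TYMS, thymidylate synthase, had 49.6, 45.8 and 56.2 CPM at 3 nM, against 13.2, 18.2 and 22.6 CPM in DMSO, and rose by 1.57 ± 0.33 (adjusted p = 0.00386). MCM7 had 222, 156 and 176 CPM at 3 nM, against 47.5, 55.7 and 146 CPM in DMSO, with DMSO replicate 3 close to the treated libraries, and rose by 1.23 ± 0.30 (adjusted p = 0.00881).

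The mitosis gene that fell was BUB1, a kinase of the spindle checkpoint, with 33.8, 36 and 33.6 CPM at 3 nM, against 84.2, 50.1 and 76.4 CPM in DMSO (log2 −1.03 ± 0.27, adjusted p = 0.0162). The proliferation gene MKI67 gave 0.12 ± 0.22 and TOP2A −0.09 ± 0.23 (adjusted p = 0.824 and 0.884). The replication count depended on the DMSO libraries, with 2, 5 and 26 members called without DMSO replicates 1, 2 and 3 in turn. The adjusted p reached 0.0743 for TYMS, 0.13 for MCM7 and 0.139 for BUB1 with single libraries left out. MCM2, MCM7 and TYMS overlap genes on the opposite strand.

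Glycolysis and hypoxia genes had 8 of 24 tested members higher and 0 lower (33.3%, median 0.62). SLC2A1, the glucose transporter GLUT1, had 105, 83.3 and 95.4 CPM at 3 nM, against 34.4, 28.4 and 52.1 CPM in DMSO, and rose by 1.37 ± 0.26 (adjusted p = 0.00187) in all 6 fits. Enolase, encoded by ENO1, had 2369, 1753 and 1933 CPM at 3 nM, against 781, 839.5 and 1342 CPM in DMSO, and rose by 1.03 ± 0.24 (adjusted p = 0.0071). SLC2A1 overlaps an antisense gene, whose reads cannot be told from its own. PGAM1, phosphoglycerate mutase, and PFKL, the liver form of phosphofructokinase, rose by 0.96 ± 0.22 and 1.23 ± 0.30 (adjusted p = 0.00713 and 0.0105). The list had 1, 4 and 9 members called without DMSO replicates 1, 2 and 3 in turn, and the adjusted p reached 0.0869 for ENO1, 0.0718 for PGAM1 and 0.114 for PFKL. Of 26 nuclear genes of oxidative phosphorylation 3 rose and 0 fell, among them UQCRC1 by 0.57 ± 0.17 and ATP5F1A by 0.54 ± 0.18 (adjusted p = 0.0352 and 0.0481), and 0, 0 and 3 of the list were called without DMSO replicates 1, 2 and 3 in turn and 0 without the filter on low counts.

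Cytosolic ribosomal proteins had 9 of 42 members higher and 0 lower (21.4%, median 0.43). RPL3 had 3063, 2049 and 2213 CPM at 3 nM, against 1184, 1175 and 1521 CPM in DMSO, and rose by 0.92 ± 0.23 (adjusted p = 0.0105). RPL4, RPL8 and RPL11 rose by 0.58 ± 0.15, 0.69 ± 0.17 and 0.70 ± 0.18 (adjusted p = 0.012 to 0.0154). Without DMSO replicates 1, 2 and 3 in turn, 0, 4 and 17 of these genes were called, so the list has no call without DMSO replicate 1. Without the filter on low counts 1 was called. Their summed level was 124553, 100695 and 100033 CPM at 3 nM, against 84336, 64233 and 102089 CPM in DMSO, and DMSO replicate 3 again lay within the treated range. The 13 mitochondrially encoded transcripts had 0 calls by edgeR or DESeq2 and 0 members at an unadjusted p under 0.05, with a median of 0.02. RNA quality was not measured here, and the part of ribosomal and mitochondrial transcripts in the other results was not tested.

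Among 30 sterol and fatty acid genes 3 rose and 3 fell, and without DMSO replicates 1, 2 and 3 in turn 0, 1 and 4 rose and 0, 1 and 3 fell. SREBF1, a transcription factor of lipid synthesis, had 19.97, 14.3 and 7.17 CPM at 3 nM, against 2.84, 3.54 and 3.47 CPM in DMSO, and rose by 2.15 ± 0.60 (adjusted p = 0.0223). PMVK, of the mevalonate pathway, rose by 1.16 ± 0.30 (adjusted p = 0.0128). HMGCS1 and SC5D, early and late enzymes of cholesterol synthesis, fell by 1.02 ± 0.27 and 1.76 ± 0.45 (adjusted p = 0.0161 and 0.0131). Members of the list thus moved in both directions. Of 13 heat shock chaperones 1 rose (0, 1 and 4 without DMSO replicates 1, 2 and 3), HSPA8, by 0.88 ± 0.19 (adjusted p = 0.00491). Of 17 ER chaperones and XBP1 targets 2 fell (1, 2 and 2 without those libraries), DNAJB11 by 0.83 ± 0.18 and DNAJC3 by 0.99 ± 0.30 (adjusted p = 0.00381 and 0.0351), both co-chaperones of BiP. Over the fits with 1 library left out, the adjusted p reached 0.166 for SREBF1, 0.166 for PMVK, 0.147 for HMGCS1, 0.116 for SC5D, 0.0732 for HSPA8 and 0.202 for DNAJC3.

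Among the genes lower at 3 nM, CTGF (ENSG00000118523.5, chromosome 6, 131948176 to 131951373), a matricellular protein and YAP target, showed the largest fall that met the naming rule. It had 3.09, 1.50 and 3.31 CPM at 3 nM, against 96.6, 91.6 and 8.68 CPM in DMSO, so that DMSO replicates 1 and 2 stood more than 10-fold above DMSO replicate 3. It fell by 4.61 ± 1.02 (adjusted p = 0.00623) and was called in all 6 fits. CLU, the secreted chaperone clusterin, had 14.2, 12.8 and 8.82 CPM at 3 nM, against 198, 271 and 41.7 CPM in DMSO, again with the lowest DMSO value in replicate 3. It fell by 3.84 ± 0.86 (adjusted p = 0.00719), also in all 6 fits. MAP2, a microtubule-associated protein, had 5.45, 10.5 and 8.27 CPM at 3 nM, against 43.4, 43 and 20.8 CPM in DMSO, and STX3, a syntaxin of apical membrane fusion, had 10.5, 11.3 and 17.6 CPM at 3 nM, against 54.8, 72.4 and 22.6 CPM in DMSO. They fell by 2.28 ± 0.48 and 2.01 ± 0.43 (adjusted p = 0.00366 and 0.00452) and stayed called in all 6 fits.

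The other large falls were SERPINI1, the protease inhibitor neuroserpin, by 2.56 ± 0.60, LGMN, the lysosomal protease legumain, by 2.24 ± 0.55, PIGH, of GPI anchor synthesis, by 2.24 ± 0.55, and TUFT1, tuftelin, by 2.32 ± 0.65. Their adjusted p ran from 0.00856 to 0.0262. DUSP5, a phosphatase that inactivates ERK, had 8.90, 8.26 and 9.93 CPM at 3 nM, against 38.2, 43.5 and 10.4 CPM in DMSO and fell by 1.87 ± 0.54 (adjusted p = 0.0274). The histone gene HIST1H2BC, which has near copies, fell by 1.93 ± 0.44 (adjusted p = 0.00611). The noncoding gene AC090409.1 and the pseudogene SFTA1P fell by 3.41 ± 0.64 and 2.60 ± 0.66 (adjusted p = 0.00173 and 0.0139). Among the large rises not yet named, NOX5, a calcium-activated NADPH oxidase, had 27.8, 34.5 and 26.5 CPM at 3 nM, against 2.58, 0.506 and 5.21 CPM in DMSO, and rose by 3.72 ± 0.84 (adjusted p = 0.0071), and B3GNT7, a glycosyltransferase, rose by 3.67 ± 0.72 (adjusted p = 0.00255). Leaving out single libraries took the adjusted p up to 0.0878 for SFTA1P, 0.0801 for SERPINI1, 0.172 for TUFT1, 0.117 for PIGH, 0.104 for LGMN, 0.213 for HIST1H2BC, 0.132 for DUSP5 and 0.0745 for NOX5.

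ATF4 and amino acid stress genes had 7 of 27 tested members lower and 1 higher (25.9% lower beside 3.54% of all genes, median −0.63). DDIT3, the stress transcription factor CHOP, had 28.5, 20.3 and 13.8 CPM at 3 nM, against 89.1, 73.4 and 38.2 CPM in DMSO, without overlap, and fell by 1.69 ± 0.38 (adjusted p = 0.00582). CHAC1, a glutathione-degrading enzyme and ATF4 target, had 0.908, 1.50 and 0.551 CPM at 3 nM, against 16.8, 15.7 and 1.74 CPM in DMSO, and fell by 3.69 ± 0.87 (adjusted p = 0.00763). ASNS, asparagine synthetase, had 0.182, 0.751 and 0.551 CPM at 3 nM, against 8.27, 139 and 0 CPM in DMSO, so its call rested on DMSO replicate 2. Its log2 value was −6.96 ± 1.32 (adjusted p = 0.00232), and without that library it was −3.73 (adjusted p = 0.0699). DDIT3 overlaps MARS and MBD6 on the opposite strand and ASNS overlaps another gene on the same strand, so their counts carry the uncertainty named above. DDIT4, an inhibitor of mTORC1, was the member that rose, by 1.40 ± 0.40 (adjusted p = 0.0262). PPP1R15A, a phosphatase subunit that restores translation, had 14.2, 12.8 and 11.6 CPM at 3 nM, against 63.3, 68.9 and 10.4 CPM in DMSO, with DMSO replicate 3 below the treated libraries, and fell by 1.97 ± 0.54 (adjusted p = 0.0209). The list had 1, 2 and 9 members called lower without DMSO replicates 1, 2 and 3 in turn. Over the 6 fits the adjusted p reached 0.0745 for DDIT3, 0.0739 for CHAC1 and 0.125 for PPP1R15A.

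ERK output and immediate early genes had 6 of 25 tested members lower and 1 higher, with a median of 0.05. These shares were 24% and 4%, beside 3.54% lower and 4.96% higher over all genes. EGR1, an immediate early transcription factor, had 2.54, 8.26 and 3.31 CPM at 3 nM, against 39.8, 54.2 and 6.94 CPM in DMSO, and fell by 3.12 ± 0.63 (adjusted p = 0.00296). FOS had 1.09, 1.50 and 0.551 CPM at 3 nM, against 13.9, 9.11 and 0 CPM in DMSO, and fell by 3.10 ± 0.79 (adjusted p = 0.0121). In both genes DMSO replicate 3 lay with the treated libraries. ETV5, an ETS factor induced by ERK, had 17.8, 12.8 and 23.2 CPM at 3 nM, against 39, 88.6 and 31.2 CPM in DMSO, and fell by 1.59 ± 0.37 (adjusted p = 0.00683). SPRY1, a feedback inhibitor of receptor signalling, rose, with 46.1, 46.5 and 29.8 CPM at 3 nM, against 8.78, 5.57 and 20.8 CPM in DMSO (log2 2.07 ± 0.39, adjusted p = 0.00178), and was called in all 6 fits. Without DMSO replicates 1, 2 and 3 in turn, 2, 2 and 8 members were called lower, and the adjusted p reached 0.152 for FOS and 0.117 for ETV5.

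Of 19 YAP and TEAD targets 4 fell, CTGF among them, and 1 rose (median 0.28). These shares were 21.1% and 5.26%, beside 3.54% lower and 4.96% higher over all genes. CYR61, a relative of CTGF, had 14.9, 9.76 and 19.9 CPM at 3 nM, against 59.2, 62.3 and 34.7 CPM in DMSO, and fell by 1.83 ± 0.52 (adjusted p = 0.028). AMOTL2, a YAP-binding junction protein, had 16.7, 15.8 and 16 CPM at 3 nM, against 45.2, 83 and 15.6 CPM in DMSO, with DMSO replicate 3 beside the treated libraries, and fell by 1.64 ± 0.39 (adjusted p = 0.00799). The member that rose was TGFB2, a TGF-beta ligand, with 36.1, 43.5 and 30.3 CPM at 3 nM, against 4.13, 1.52 and 20.8 CPM in DMSO (log2 2.67 ± 0.58, adjusted p = 0.0055). Of 23 TGF-beta and activin genes 4 rose (17.4%) and 1 fell (4.35%). Without DMSO replicates 1, 2 and 3 in turn 1, 3 and 4 rose and 0, 1 and 2 fell. TGFBI, an extracellular matrix protein induced by TGF-beta, had 884, 800.0 and 827 CPM at 3 nM, against 298, 287 and 338 CPM in DMSO, groups well apart with little spread, and rose by 1.45 ± 0.23 (adjusted p = 0.000485) in all 6 fits. THBS1, an activator of latent TGF-beta, rose by 2.01 ± 0.46 (adjusted p = 0.00762), and SKIL, a repressor of SMADs, fell by 1.18 ± 0.32 (adjusted p = 0.0173). YAP and TEAD targets called lower numbered 2, 1 and 4 without DMSO replicates 1, 2 and 3, and the highest adjusted p over the 6 fits was 0.123 for CYR61, 0.11 for AMOTL2, 0.0972 for TGFB2, 0.0792 for THBS1 and 0.149 for SKIL.

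In the EGF receptor family and its ligands, 3 of 10 tested members rose and 1 fell, 30% and 10% beside 4.96% and 3.54% of all genes. Without DMSO replicates 1, 2 and 3 in turn 1, 1 and 2 rose and 0, 0 and 1 fell. BTC, the ligand betacellulin, had 11.8, 11.3 and 11.6 CPM at 3 nM, against 0.775, 0 and 1.74 CPM in DMSO, and rose by 4.13 ± 0.78 (adjusted p = 0.00173) in all 6 fits. ERRFI1, a feedback inhibitor of the receptor, had 95.1, 90.8 and 88.8 CPM at 3 nM, against 28.4, 28.4 and 26 CPM in DMSO, and rose by 1.72 ± 0.51 (adjusted p = 0.0354). HBEGF, another ligand, had 7.26, 3.75 and 1.65 CPM at 3 nM, against 32.3, 48.1 and 3.47 CPM in DMSO, and fell by 2.66 ± 0.74 (adjusted p = 0.0261). The ligands therefore moved in both directions. Left-out libraries took the adjusted p up to 0.157 for ERRFI1 and 0.111 for HBEGF. EGFR itself gave 0.70 ± 0.25 (adjusted p = 0.0761).

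NRF2 antioxidant genes had 2 of 21 tested members higher and 6 lower (median −0.09). These shares were 9.52% and 28.6%, beside 4.96% higher and 3.54% lower over all genes. GCLC, the catalytic subunit of glutamate-cysteine ligase, had 578, 706 and 607 CPM at 3 nM, against 191, 195 and 255 CPM in DMSO, and rose by 1.57 ± 0.28 (adjusted p = 0.00107) in all 6 fits. AKR1C3, an aldo-keto reductase, fell by 1.35 ± 0.42 and FTL, the ferritin light chain, by 0.70 ± 0.22 (adjusted p = 0.037 and 0.0358). Over the 6 fits the adjusted p reached 0.196 for AKR1C3 and 0.577 for FTL. The members called lower numbered 1, 2 and 5 without DMSO replicates 1, 2 and 3, and 0 without 3 nM replicate 1. Without the filter on low counts 2 members were lower.

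The remaining lists had few calls. Of 19 p53 targets 1 rose and 3 fell, and without DMSO replicates 1, 2 and 3 in turn 0, 0 and 2 rose and 0, 0 and 5 fell. CDKN1A, the cell cycle inhibitor p21, had 16.3, 15.8 and 13.2 CPM at 3 nM, against 100.2, 133 and 6.94 CPM in DMSO, so that DMSO replicate 3 lay below the treated libraries. Its log2 value was −2.47 ± 0.74 (adjusted p = 0.0354). PLK3, a stress kinase, and RRM2B, a ribonucleotide reductase subunit, fell by 1.53 ± 0.47 and 1.70 ± 0.53, and DDB2, of nucleotide excision repair, rose by 1.17 ± 0.36 (adjusted p = 0.0366, 0.0387 and 0.0352). Of 22 death receptor, TRAIL and BCL2 relatives 2 rose and 3 fell, and without the same libraries 1, 2 and 3 rose and 0, 1 and 5 fell. BID, a BH3 protein that links death receptors to mitochondria, had 29.8, 15 and 21 CPM at 3 nM, against 5.42, 2.53 and 3.47 CPM in DMSO, and rose by 2.44 ± 0.45 (adjusted p = 0.00164) in all 6 fits, while BAD rose by 1.17 ± 0.29 and BIRC2, an inhibitor of apoptosis, fell by 1.24 ± 0.32 (adjusted p = 0.0104 and 0.0135). TNFRSF10A, a receptor for TRAIL, had 15.2, 10.5 and 15.4 CPM at 3 nM, against 26.3, 50.6 and 8.68 CPM in DMSO, with DMSO replicate 3 below the treated libraries, and fell by 1.13 ± 0.31 (adjusted p = 0.0183). Of 17 NF-kB targets 1 rose (0, 0 and 1 without those libraries), TNFAIP2, by 1.34 ± 0.39, and 1 fell (0, 1 and 2), SOD2, by 1.23 ± 0.27 (adjusted p = 0.028 and 0.0049). Of 10 tubulins 2 fell (0, 0 and 4), TUBB2A by 1.67 ± 0.51 and TUBB6 by 0.83 ± 0.26 (adjusted p = 0.037 and 0.0428). Of the genes in this paragraph BID alone was called in all 6 fits, and the adjusted p of the others reached 0.138 for CDKN1A, 0.246 for DDB2, 0.165 for PLK3, 0.232 for RRM2B, 0.0745 for BAD, 0.192 for BIRC2, 0.329 for TNFRSF10A, 0.253 for TNFAIP2, 0.0724 for SOD2, 0.166 for TUBB2A and 0.202 for TUBB6.

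**Figure D4:**
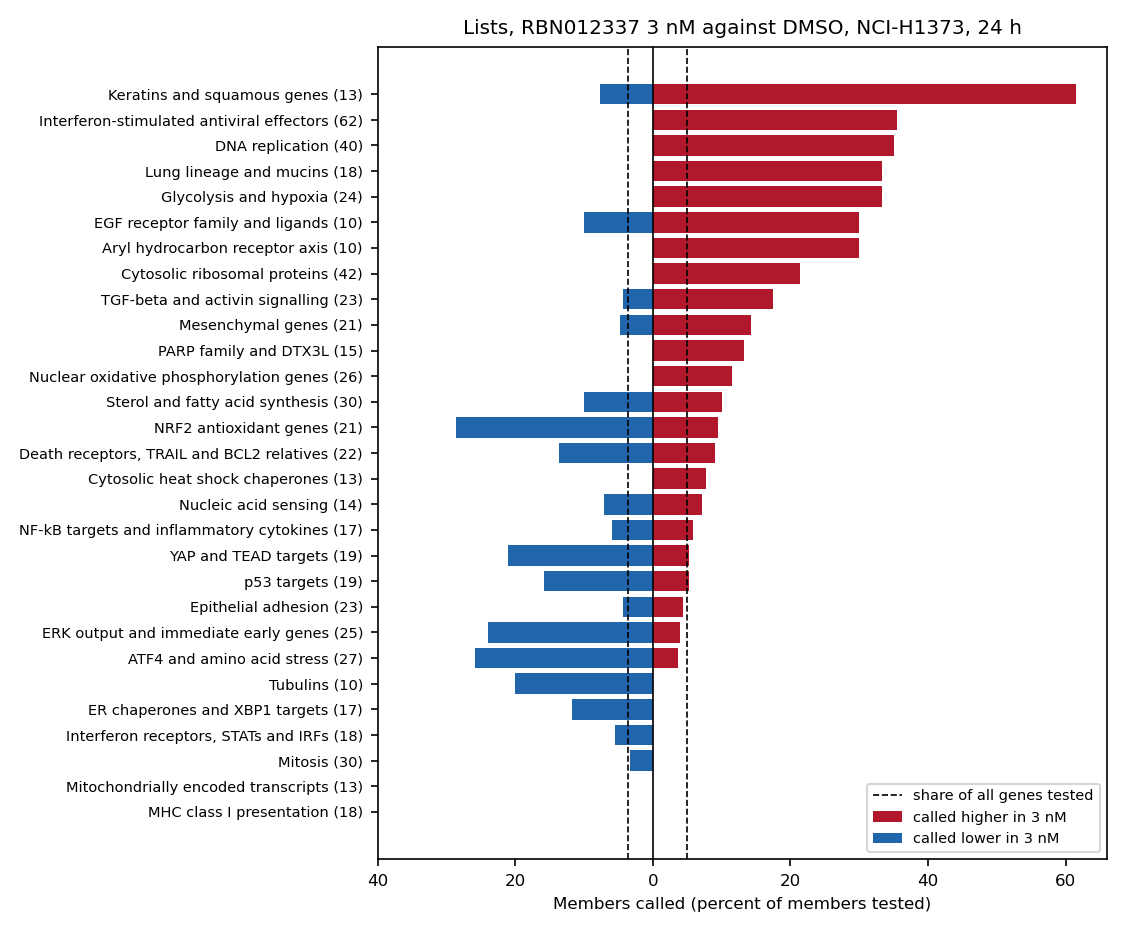
Members of each list called higher (red, to the right) or lower (blue, to the left) at 3 nM than in DMSO at 24 h in NCI-H1373, as a percentage of the members tested, whose number stands in brackets. Dashed lines mark the shares over all genes tested, 4.96% higher and 3.54% lower, and keratins, antiviral effectors and DNA replication have the highest shares called higher.

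The dose of 3 nM was then set directly against the higher doses of the same compound, a contrast without DMSO libraries. Against 10 nM, edgeR called 0 of 12832 genes, with 287 at an unadjusted p under 0.05, and DESeq2 called 1. The difference between 3 and 10 nM was −0.07 ± 0.60 for OASL, −0.40 ± 0.78 for IFIT1, 1.32 ± 0.82 for KRT4, −1.34 ± 0.48 for CCL5 and −1.40 ± 0.68 for CYP1B1, each with an adjusted p of 1. A p that misses the threshold does not show that the doses act alike. Antiviral effectors summed to 6848, 8700 and 5893 CPM at 3 nM and to 9777, 10261 and 6179 CPM at 10 nM. The comparisons of 3 and 10 nM with DMSO share the DMSO libraries. Against DMSO, 10 nM had 344 genes called (2.68%), 239 higher (1.86%) and 105 lower (0.818%), with 24 antiviral effectors higher and 0 lower and a list median of 1.18.

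Against 100 nM, 16 genes were called (0.125%), 5 higher (0.039%) and 11 lower (0.0857%) at 3 nM. The 100 nM libraries differed among themselves, with antiviral effectors summing to 4978, 3067 and 16849 CPM in replicates 1, 2 and 3. CCL5 had 11.4, 12 and 7.17 CPM at 3 nM, against 118, 38.2 and 34.9 CPM at 100 nM, a log2 difference of −2.65 ± 0.47 (adjusted p = 0.0135). At 10 nM it had 25.5, 27.1 and 26 CPM, between those levels. F2RL1, the protease-activated receptor PAR2, had 43.8, 35.3 and 35.3 CPM at 3 nM, against 303, 176 and 37.3 CPM at 100 nM (log2 −2.17 ± 0.46, adjusted p = 0.042).

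The kinase gene PIM1 and the engulfment adaptor gene GULP1 were also lower at 3 nM than at 100 nM, with log2 differences of −2.25 ± 0.44 and −1.74 ± 0.35 (adjusted p = 0.0246 and 0.0328). Higher at 3 nM were PTGES2, a prostaglandin synthase, and RANBP1, a regulator of the GTPase Ran, by 1.42 ± 0.29 and 1.18 ± 0.25 (adjusted p = 0.0328 and 0.0415). RANBP1 overlaps TRMT2A on the opposite strand. PIM1, GULP1, PTGES2 and RANBP1 were called in the same direction at 3 nM against DMSO. Their log2 fold changes there were −1.73, −1.45, 1.30 and 1.63, while CCL5 was called the other way, at 2.35. By the correlations above, 100 nM replicates 1 and 2 lay close to DMSO replicates 1 and 2. Of the antiviral effectors 0 were called between 3 and 100 nM by edgeR or DESeq2, with 0 higher and 3 lower at an unadjusted p under 0.05, where 1798 of all genes stood. The count of 16 became 0, 2 and 1122 without 100 nM replicates 1, 2 and 3 in turn. It became 1, 1 and 1 without 3 nM replicates 1, 2 and 3 in turn, and 0 with only the 6 libraries compared. Against DMSO, 100 nM had 25 genes called (0.195%), all higher, 11 of them antiviral effectors, with a list median of 1.26. In that comparison the DNA replication, glycolysis and ribosomal protein lists had 0 members called, with medians of 0.16, 0.21 and 0.01, and keratins had 1. Of 40 replication genes, 22 were higher and 0 lower at 3 than at 100 nM at an unadjusted p under 0.05, beside 14% of all genes in either direction. Of these edgeR called 0 and DESeq2 2.

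The response at 24 h was set against the response at 6 h by an interaction term, with separate 3 nM and DMSO libraries at each time. It called 2 of 12832 genes (0.0156%), 1 with a higher and 1 with a lower response at 24 h (0.00779% each). NTHL1, a DNA glycosylase of base excision repair, had 43.9, 51.7 and 49.9 CPM at 3 nM and 63.4, 55.6 and 46.9 CPM in DMSO at 6 h. At 24 h it had 92.6, 63.8 and 61.8 CPM at 3 nM and 22, 13.2 and 26 CPM in DMSO, so the groups separated at the later time, where DMSO was lower than at 6 h. The difference of responses was 2.09 ± 0.38 (adjusted p = 0.0252), and NTHL1 overlaps TSC2 on the opposite strand. SH3BP4, an endocytic adaptor, had 36.9, 35.3 and 26.6 CPM at 3 nM and 9.45, 3.67 and 13.4 CPM in DMSO at 6 h. At 24 h it had 20.3, 14.3 and 21 CPM at 3 nM and 31, 40.5 and 31.2 CPM in DMSO, the opposite order, and the difference of responses was −2.78 ± 0.52 (adjusted p = 0.0252). With single libraries left out, the adjusted p reached 0.136 for both genes.

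CYP1B1 was called at 6 h, with 154, 304 and 155 CPM at 3 nM against 13.4, 14.7 and 18.3 CPM in DMSO (log2 3.74 ± 0.75, adjusted p = 0.0222). The difference of its responses between 24 and 6 h was −2.49 ± 1.0 and did not pass (adjusted p = 0.31). TIPARP at 6 h gave 0.94 ± 0.32 (adjusted p = 0.154), and its difference between the times was −0.06 ± 0.47 (adjusted p = 0.992). Antiviral effectors were not called at 6 h. They summed to 3252, 3062 and 3351 CPM at 3 nM, against 2701, 2820 and 2732 CPM in DMSO at that time, so the groups were apart. Over all genes 60 were called at 6 h (0.468%), 42 higher (0.327%) and 18 lower (0.14%), and edgeR called 0 antiviral effectors. At an unadjusted p under 0.05, 7 were higher and 0 lower, where 13.4% of all genes stood at such a p in either direction. OASL already had 99.6, 73.8 and 86 CPM at 3 nM at 6 h, against 25.4, 12.6 and 17.1 CPM in DMSO, without overlap (log2 2.20 ± 0.65, adjusted p = 0.103).

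The interaction called 0 antiviral effectors by edgeR or DESeq2, with 19 higher and 0 lower at an unadjusted p under 0.05, as were 11.9% of all genes in either direction, and a median difference of 1.01. MX1 had 8.11, 8.11 and 6.65 CPM at 3 nM and 5.90, 2.62 and 4.88 CPM in DMSO at 6 h, and its response differed by 2.40 ± 1.21 between the times (adjusted p = 0.437). MCM2, with 68.5, 65.9 and 67 CPM at 3 nM and 105, 52 and 42.1 CPM in DMSO at 6 h, differed by 2.37 ± 0.54 (adjusted p = 0.0613). KRT4 stood at 81.8, 46.5 and 89.8 CPM at 3 nM and 91.3, 17.3 and 42.7 CPM in DMSO at 6 h, so all 6 libraries at 6 h lay above the DMSO libraries at 24 h. Its difference of responses was 4.67 ± 1.42 (adjusted p = 0.172).

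**Figure D5:**
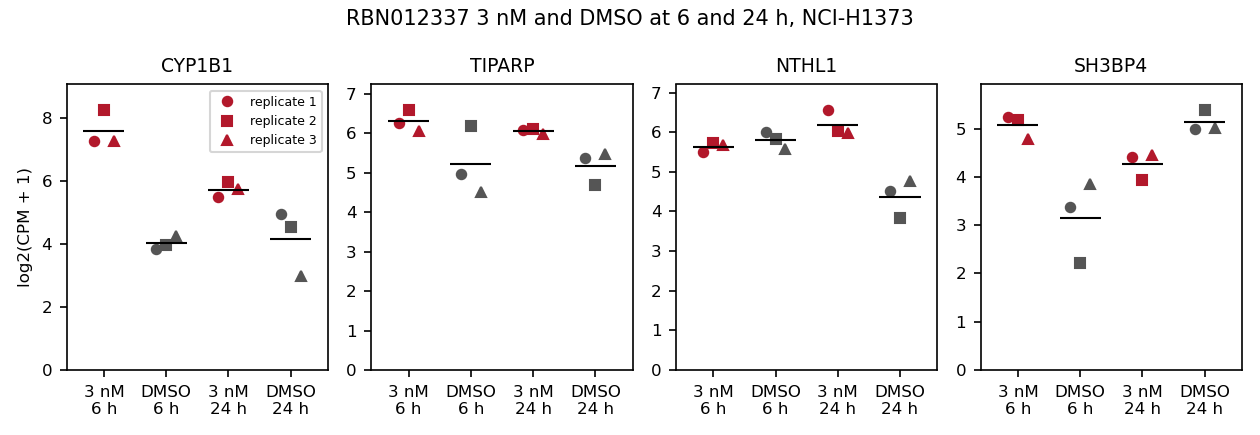
log2(CPM + 1) of CYP1B1, TIPARP, NTHL1 and SH3BP4 in NCI-H1373 with RBN012337 at 3 nM (red) or DMSO (grey) at 6 and 24 h, 1 point per library and a line at the mean. CYP1B1 separates most at 6 h, NTHL1 at 24 h, and SH3BP4 changes order between the times.

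In NCI-H647 the same dose and time gave 105 called genes of 16177 (0.649%), 65 higher (0.402%) and 40 lower (0.247%). Of the antiviral effectors 8 rose and 0 fell there, with a median of 1.08. IFIT1 had 47.1, 127 and 166 CPM at 3 nM, against 17.6, 1.65 and 6.61 CPM in DMSO in NCI-H647, without overlap (log2 3.77 ± 0.97, adjusted p = 0.0472). ISG15, MX1 and TRIM14 rose by 2.89 ± 0.66, 4.17 ± 1.01 and 1.58 ± 0.40 (adjusted p = 0.0265, 0.0331 and 0.0365). TGFBI rose by 1.04 ± 0.22 and KRT7 by 2.25 ± 0.55 (adjusted p = 0.0094 and 0.0344), and DDIT3 fell by 2.28 ± 0.44 (adjusted p = 0.0038).

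The response in NCI-H1373 minus that in NCI-H647 was tested by an interaction term over all 84 libraries. EdgeR called 0 of 16177 genes, with 1134 at an unadjusted p under 0.05 and a smallest adjusted p of 0.0751. Among antiviral effectors 0 were called, with 1 higher and 0 lower at an unadjusted p under 0.05, and the median difference was 0.05. The difference was 1.96 ± 1.06 for OASL, 0.95 ± 1.34 for IFIT1 and −0.33 ± 0.88 for ISG15 (adjusted p = 0.763, 0.999 and 1). It was 3.72 ± 1.16 for ALDH1A3, which had 4.08, 3.43 and 0.967 CPM at 3 nM and 1.55, 1.65 and 2.76 CPM in DMSO in NCI-H647 (adjusted p = 0.326). KRT4, MUC1 and MUC16 were at 0 in all 6 NCI-H647 libraries, so no difference of responses can be given for them.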

How the data were processed

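Transcripts were counted from their 3' ends in digital gene expression libraries. The authors deposited 1 table of estimated counts per gene, not normalized and not pooled, made with Salmon 0.11.27 on hg38 per the submitters' processing notes. For annotation, strand and molecular identifiers the handling is not given in the sources used here, so count-based intervals and floors hold for sampling of reads alone. Columns were matched to samples by title. Gene names and positions came from GENCODE 29 on GRCh38 for 57845 of 57964 genes.

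Counts were rounded and analysed in R 4.3.3 with edgeR 4.0.16: filterByExpr by group, TMM scaling, robust quasi-likelihood F test, Benjamini-Hochberg adjustment over all genes tested, threshold 0.05. One fit with the 42 NCI-H1373 libraries (12832 genes) served all contrasts within that line, and a fit with all 84 libraries (16177 genes) those with NCI-H647. CPM are counts scaled to TMM-adjusted library sizes, and log2 fold changes carry standard errors of the fit (n = 3 per group). The procedure was run on simulated data in which no library departed from its group. That run therefore does not cover a library such as DMSO replicate 3. Called means past the threshold, and a list's percentages refer to its tested members. Total counts ran from 630654 to 5994186 in NCI-H1373, and replicate pairs of the groups compared differed by more than counting noise.

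Alternatives were DESeq2 1.42.0, median-of-ratios factors, no filter, a replicate block, fewer libraries in the fit, and each library left out. Counts of list members under these alternatives were added after seeing the data. Named genes are the 12 largest rises and falls among called genes of at least 20 CPM without overlap, the 5 largest each way in the other contrasts, up to 4 called members of each list by adjusted p, and TIPARP and CYP1B1. The members and lists were chosen with earlier results of these data known. Results for a few genes are not reported here.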

Additional observations from a re-analysis of the deposited data

Results flagged for a closer look

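The responses to 3 nM RBN012337 at 24 and 6 h in NCI-H1373 differed for 2 genes by the interaction term of the edgeR fit. NTHL1 had a larger response at 24 h, by 2.09 on the log2 scale (adjusted p = 0.0252). With each library left out in turn this value ran from 1.85 to 2.24, with an adjusted p of 0.00294 to 0.136 and under 0.05 in 6 of 12 fits. SH3BP4 had a log2 value of −0.87 ± 0.36 at 24 h (adjusted p = 0.123) and of 1.91 ± 0.37 at 6 h (adjusted p = 0.0142), a difference of −2.78 (adjusted p = 0.0252). With each library left out it ran from −3.10 to −2.46, with an adjusted p of 0.00496 to 0.136 and under 0.05 in 4 of 12 fits. What sets these genes apart was not tested.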

How the results depend on the processing

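For 3 nM against DMSO at 24 h the count of 1091 kept within 1.5 times under median-of-ratios scaling (1085), no filter (1045, with 745 of the same genes) and DESeq2 (1223, with 1044 of the same genes). It was 1851 with a replicate block, 661 with the 21 libraries at 24 h, 325 with only the 6 libraries compared and 0 with only replicates 2 and 3 of the groups at 24 h. Leaving out 1 library gave 127 to 1653. The counts for the direct tests were more dependent on the setting. Without the filter they were 51 for 3 against 10 nM, 285 for 3 against 100 nM, 188 for 24 against 6 h and 117 between the lines. With the replicate block they were 0, 446, 209 and 31 in the same order. DESeq2 gave 1 for 3 against 10 nM, 94 for 3 against 100 nM and 77 for 24 against 6 h, and was not run between the lines. The 6 libraries alone gave 0 for both dose contrasts. Leaving out 1 library gave 0 to 0 for 3 against 10 nM, 0 to 1122 for 3 against 100 nM, 0 to 326 for 24 against 6 h (326 without DMSO replicate 3 at 24 h) and 0 to 22 between the lines (22 without that library). The cause of these changes was not tested, and several counts grew when a library was left out.

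Replicate numbers were checked as pairs. Deviations from the group means correlated at 0.0488 to 0.321 between same-numbered 3 nM and DMSO libraries at 24 h, and at −0.185 to 0.0861 between differently numbered ones. These values do not settle whether the numbers pair the samples, and the main fit used no pairing. Between 3 and 10 nM, where the block left the count at 0, same-numbered libraries correlated at 0.126 to 0.359. Such deviations correlated at 0.108 to 0.276 between 3 nM and DMSO at 6 h, libraries that enter the test of 24 against 6 h, and at 0.0319 to 0.332 between 3 and 100 nM. Of 1467 values of named genes under the alternatives, 996 kept direction and side of the threshold and 469 kept direction but no longer passed. A further 2 newly passed, TIPARP with the 21 libraries and CYP1B1 without the filter, where adjusted p cannot be compared with the main fit. The direction turned for 0 values of the named genes. Apart from TIPARP and CYP1B1, these genes were chosen as called in the main fits, so a turned direction was unlikely from the start. Members called higher in the 6-library fit numbered 20 of the antiviral effectors, 3 of the DNA replication genes and 4 of the keratins. The shallowest library, DMSO replicate 3 with 630654 counts, limits what can be seen of genes under a few CPM.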
